A study of Mus musculus with 4 samples.

Results

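The BAF complexes are chromatin remodelers that use ATP to slide or evict nucleosomes, and they are assembled from interchangeable subunits encoded by gene families. When neural progenitors leave the cell cycle, several of these positions are known to switch: the actin-related subunit ACTL6A gives way to ACTL6B, and the PHD finger subunits PHF10 and DPF2 give way to DPF1 and DPF3. In progenitors ACTL6A is known to be needed for division, and ACTL6B is known for its part in dendrite growth and memory. Described here are 10 genes of these families in the mouse cell line CAD, chosen by name from a table of 24341 genes. All 10 were in the table. They comprise 4 progenitor-type subunits (Actl6a, Phf10, Dpf2 and Smarcd1), 4 neuron-type subunits (Actl6b, Dpf1, Dpf3 and Smarcd3) and the alternative ATPases Smarca4 and Smarca2.

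CAD (Cath.-a-differentiated) is a catecholaminergic line of the mouse central nervous system whose cells grow processes when serum is removed. Every library came from cells held in serum-free medium for 5 days. The 2 DMSO libraries are from cells given the solvent for 24 h. The 2 ACSS2i libraries are from cells given 20 µM of a quinoxaline urea that inhibits ACSS2, again for 24 h. ACSS2 turns acetate into acetyl-CoA, and the comparison asks how neuron-like cells express their genes when this supply is blocked. The design has no undifferentiated CAD cells, so the levels below describe the serum-deprived state only. Separate cultures are not named in the labels, so p-values measure only the spread between libraries, which may be technical.

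Levels are in FPKM, a read measure scaled by transcript length and sequencing depth. Comparisons of level between genes depend on the transcript lengths used, which are not given in the sources used here. For Phf10, Actl6b and Smarcd3 the longest protein-coding transcript (1663, 1592 and 1735 bases in GENCODE M21) is far shorter than the longest of any kind (3901, 3100 and 3774 bases). Nominal depth read from the low values ran from 3230000 reads in DMSO replicate 2 to 11100000 in DMSO replicate 1. Summed over all genes, the level was 590549 and 590108 FPKM after DMSO, against 558458 and 675716 FPKM after ACSS2i. Levels and sums below are not rescaled for this, and ACSS2i replicate 2 has the largest total. Of the 16 neuronal markers examined, 12 had a mean of at least 1 FPKM. Of these 12, 0 were higher in both inhibitor libraries, 3 were lower in both and 9 overlapped, with a median log2 fold change of -0.08. Over all genes tested 19.0% were higher in both and 18.3% lower in both. The 3 neuronal markers lower in both were Syp, Syt1 and Elavl3. Tubb3, neuronal tubulin, was at 99.0 and 134 FPKM after DMSO, against 121 and 323 FPKM after ACSS2i, overlapping between groups. Dcx, Rbfox3, Nefl and Nefm stayed below 0.4 FPKM in every library. Of 12 catecholaminergic markers, 9 had a mean of at least 1 FPKM. Of these 9, 1 was higher in both inhibitor libraries, 0 were lower in both and 8 overlapped. Th, the rate-limiting enzyme of catecholamine synthesis, was at 2.92 to 4.09 FPKM. Slc6a2 was at 0.01 FPKM in all 4 libraries, and Dbh was at 0.226 to 0.624 FPKM. Slc18a2 was at 70.2 and 62.3 FPKM after DMSO, against 21.6 and 109 FPKM after ACSS2i. Markers of astrocytes, microglia and fibroblasts reached at most 0.479, 0.475 and 0.427 FPKM, and of the oligodendrocyte markers Mag and Olig2 were at the table's floor of 0.01 FPKM in all 4 libraries, while Mbp and Cnp were at 2.10 to 5.12 FPKM. Among the marker lists, the genes of dividing cells had the largest median log2 difference, 1.99. All 20 of 20 proliferation genes were higher in both ACSS2i libraries than in both DMSO libraries, and their summed level came to 66.1 and 102 FPKM after DMSO, against 208 and 415 FPKM after ACSS2i. All 20 had an unadjusted p under 0.05 by limma and 0 passed an adjusted p of 0.05 (smallest 0.319). Among all genes tested, 3.29% were higher at an unadjusted p under 0.05. Of 10 neural progenitor markers 5 passed the filter, of which 1 was higher in both inhibitor libraries, 1 was lower in both (Msi1, log2 fold change -0.35) and 3 overlapped. The shares over all genes tested were 19.0% higher in both and 18.3% lower in both. The progenitor marker that was higher was Vim, at 338 and 425 FPKM after DMSO, against 870 and 1586 FPKM after ACSS2i. Sox2 reached at most 0.0411 FPKM. The part of these genes in any BAF result was not tested. In bulk RNA, fewer cells of a type and less RNA per cell cannot be told apart.

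Progenitor-type and neuron-type subunits were expressed side by side in these cells. All 10 genes passed the filter of a mean of at least 1 FPKM. Their means over the 4 libraries ran from 3.58 FPKM for Smarcd3 to 133 FPKM for Phf10. The summed level of the progenitor-type subunits came to 216 and 252 FPKM after DMSO, against 175 and 247 FPKM after ACSS2i. The neuron-type subunits summed to 78.5 and 69.1 FPKM after DMSO, against 58.7 and 79.9 FPKM after ACSS2i. Both sums overlapped between the groups, and the progenitor-type sum was the larger in each library.

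**Figure D1:**
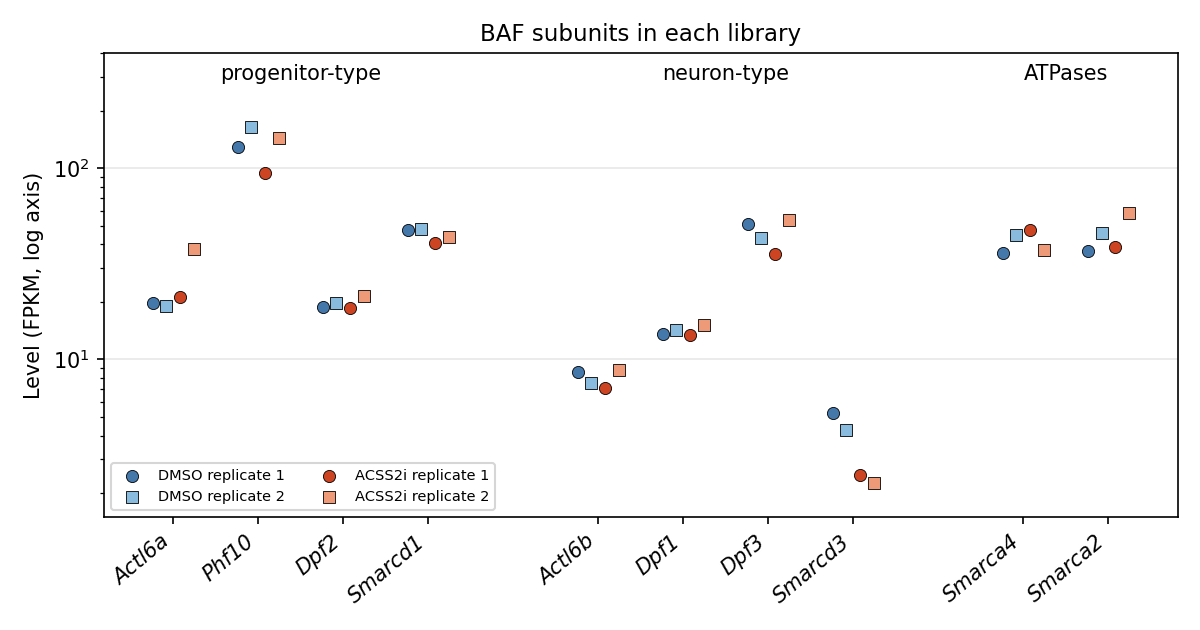
Level of each BAF subunit in each of the 4 libraries, in FPKM on a log axis, with circles for replicate 1 and squares for replicate 2 of DMSO (blue) and ACSS2i (red). Phf10 sits above the other members in every library, at 94.2 to 165 FPKM, and Smarcd3 below them, at 2.25 to 5.27 FPKM.

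In order of mean log2 level over the 4 libraries the genes were Phf10, Dpf3, Smarcd1, Smarca2, Smarca4, Actl6a, Dpf2, Dpf1, Actl6b and Smarcd3. Phf10 lay above Dpf3, the next in order, in 4 of 4 libraries, with ranges that did not overlap. Dpf3, Smarcd1, Smarca2 and Smarca4 formed a group with means of 41.5 to 45.8 FPKM in which neighbouring genes differed by less than the spread between libraries. Actl6a was below Smarca4 in 3 of 4 libraries and above Dpf2 in 3 of 4, and its range overlapped both. From Dpf2 downwards the order Dpf2, Dpf1, Actl6b, Smarcd3 was the same in 4 of 4 libraries, and no neighbouring ranges overlapped.

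With the inhibitor 0 of the 10 genes passed limma's test at an adjusted p of 0.05, and the smallest adjusted p among them was 0.618, for Smarcd3. Over all 11486 genes tested, 3 passed, which is 0.0261%. At an unadjusted p under 0.05 there was 1 of the 10, Smarcd3, lower. The share of all tested genes at that level was 6.96% in either direction, 3.29% higher and 3.67% lower. Of the 10 genes, 1 was higher in both inhibitor libraries (Actl6a) and 2 were lower in both (Smarcd1 and Smarcd3). The remaining 7 overlapped between groups. Among all tested genes 37.3% did not overlap, 19.0% higher and 18.3% lower, so the 3 of 10 here lie near the share of genes in general. Log2 fold changes are on the log2(FPKM + 1) scale, which understates the change of low genes, with limma's standard error (SE).

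**Figure D2:**
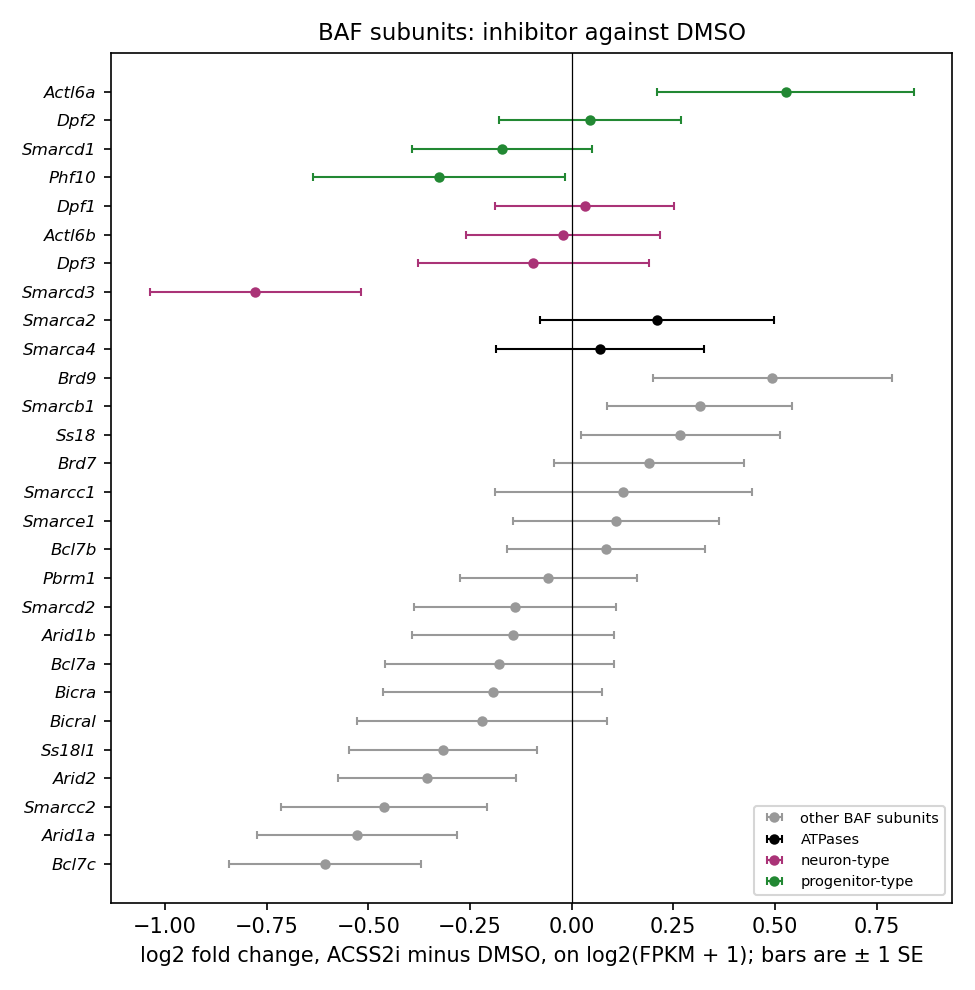
Log2 fold change of each BAF subunit, ACSS2i minus DMSO, on log2(FPKM + 1), with bars of 1 SE from limma, for the 10 genes described and the 18 other BAF subunits that passed the filter. Smarcd3 lies farthest to the left at -0.78 and Actl6a farthest to the right at 0.53.

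The actin-related pair is the position of the complex for which the switch from progenitor to neuron is best known. Actl6a was at 19.8 and 19.1 FPKM in the DMSO libraries and at 21.3 and 37.9 FPKM in the ACSS2i libraries. Both inhibitor libraries were above both DMSO libraries, replicate 1 by little and replicate 2 by much. The log2 fold change was 0.53 ± 0.32 (SE; limma, unadjusted p = 0.148, adjusted p = 0.805), with a 95% interval from -0.25 to 1.30. It came to 0.13 without ACSS2i replicate 2 and to 0.93 without ACSS2i replicate 1. ACSS2i replicate 2 also had the larger summed proliferation level, 415 against 208 FPKM, and the larger sum over all genes, 675716 against 558458 FPKM. The part of either in the level of Actl6a was not tested. Actl6b, its neuronal paralog, measured 8.57 and 7.50 FPKM after DMSO, against 7.09 and 8.76 FPKM after ACSS2i. These values interleaved, and the log2 fold change was -0.02 ± 0.24 (SE; 95% interval from -0.61 to 0.56). Its sign turned without DMSO replicate 1 or without ACSS2i replicate 1, at 0.06 and 0.11.

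Within each library Actl6a exceeded Actl6b. The excess was 2.31-fold and 2.55-fold in the DMSO libraries and 3.01-fold and 4.33-fold in the ACSS2i libraries. With 1 FPKM added to each gene, unlike in these folds, the log2 ratio of Actl6b to Actl6a was -1.18 ± 0.09 in DMSO and -1.73 ± 0.38 in ACSS2i (SD, n = 2 libraries each), without overlap. The exact two-sided permutation test over libraries gave p = 0.333, the smallest that 2 against 2 libraries allow. The difference of -0.55 came mainly from Actl6a, whose log2 values within the inhibitor pair lay 0.80 apart, against 0.05 within the DMSO pair. It was -0.28 without ACSS2i replicate 2 and -0.81 without ACSS2i replicate 1.

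**Figure D3:**
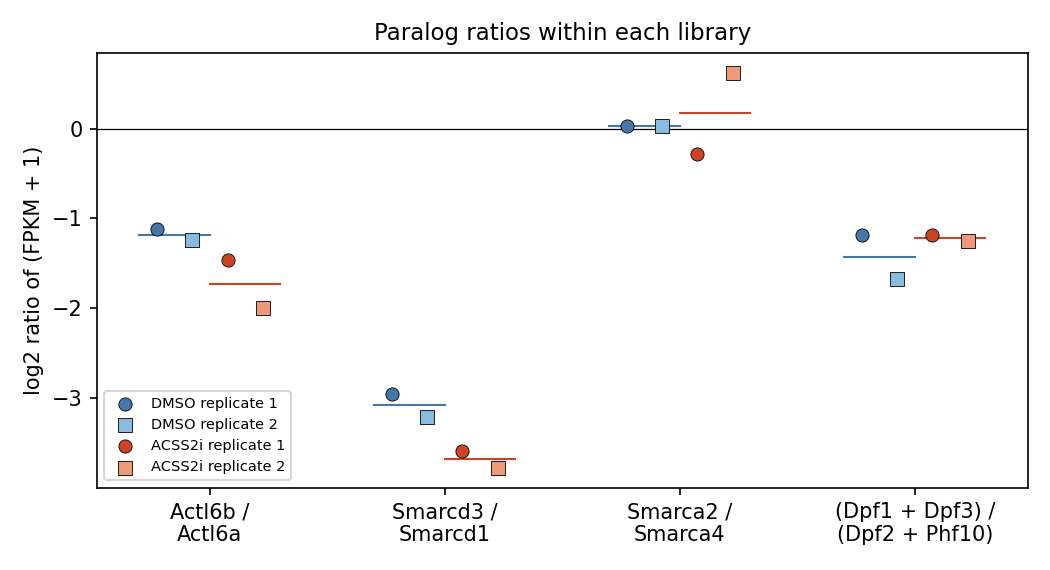
Log2 ratio of (FPKM + 1) within each library for 4 paralog pairs or sets, neuron-type over progenitor-type and Smarca2 over Smarca4, with lines at the group means of 2 libraries. The points for Actl6b/Actl6a and Smarcd3/Smarcd1 lie lower in both ACSS2i libraries, and the other 2 ratios overlap between groups.

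The starts of these paralogs are shown because this pair turns over between the cell states. Actl6a lies on the plus strand of chromosome 3 at 32706298 to 32726973 (mm10, GENCODE M21), and Actl6b on the plus strand of chromosome 5 at 137553517 to 137569582. The windows run from 250 bases before to 50 after the RefSeq start (GRCm38.p6), 5′ to 3′ on the gene's strand, chr3:32708296-32708595 for Actl6a and chr5:137553296-137553595 for Actl6b. The RefSeq start of Actl6a lies inside the longer GENCODE gene. Capitals mark matches, on either strand, to the E2F motifs TTCCCGC and TTGGCGC, to CCAAT, and to the partial sites CAGCACC and GGACAG of RE1, the element bound by the repressor REST. None of the matches overlap one another.
Actl6a promoter: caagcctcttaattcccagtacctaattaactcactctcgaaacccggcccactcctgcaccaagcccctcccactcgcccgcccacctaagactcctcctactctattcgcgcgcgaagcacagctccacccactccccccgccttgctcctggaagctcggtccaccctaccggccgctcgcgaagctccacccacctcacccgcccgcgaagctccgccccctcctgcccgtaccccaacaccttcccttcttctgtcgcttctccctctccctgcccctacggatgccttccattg
Actl6b promoter: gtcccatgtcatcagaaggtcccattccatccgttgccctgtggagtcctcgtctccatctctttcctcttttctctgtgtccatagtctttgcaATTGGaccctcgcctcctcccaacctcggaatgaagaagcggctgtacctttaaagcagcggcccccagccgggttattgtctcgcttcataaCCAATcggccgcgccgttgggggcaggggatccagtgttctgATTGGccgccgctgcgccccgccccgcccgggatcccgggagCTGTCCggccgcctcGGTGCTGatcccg
The Actl6b window held both RE1 partial sites, 22 and 37 bases after the start, along with 3 CCAAT matches. Both partial sites were present in 1.73% of 32851 promoter windows of this length, and in 1 of the 10 genes here. The Actl6a window held 0 matches. Rest itself measured 2.46 and 1.47 FPKM after DMSO, against 3.39 and 2.12 FPKM after ACSS2i, overlapping between groups.

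The microRNAs miR-9-3p and miR-124 are known to repress Actl6a as neurons form. The mature miR-9-3p is shown with its seed, bases 2 to 8, in capitals, followed by the match to that seed in the 3′ UTR of Actl6a, with the 7 matching bases in capitals.
miR-9-3p: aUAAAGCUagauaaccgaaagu
Actl6a site: cacctcaacgtctgtAGCTTTAg
The match began at base 38 of the 371 bases of the longest 3′ UTR among the protein-coding GENCODE M21 transcripts of Actl6a, and miR-9-3p is as listed by RefSeq. Of 1796 3′ UTRs within 20% of that length, 2.39% held such a match. Smarca2 held 1 match as well and the other 8 genes 0. Mature microRNAs are not measured by a polyadenylated RNA library. The precursor rows of Mir9 and Mir124a, 6 in all, were listed at the floor in all 4 libraries. Mir124a-1hg, the host transcript of one miR-124 copy, measured 1.34 and 1.06 FPKM after DMSO, against 0.827 and 0.676 FPKM after ACSS2i.

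SMARCD subunits are accessory proteins that link the remodeler to transcription factors, and Smarcd3 is the member known from heart and neural development. Smarcd3 measured 5.27 and 4.30 FPKM after DMSO, against 2.48 and 2.25 FPKM after ACSS2i. Both inhibitor libraries lay below both DMSO libraries. The means were 4.79 ± 0.69 and 2.37 ± 0.16 FPKM (SD, n = 2 each), and DMSO was 2.02-fold the inhibitor level. The log2 fold change was -0.78 ± 0.26 (SE; limma, unadjusted p = 0.0246, adjusted p = 0.618), with a 95% interval from -1.42 to -0.14. The unadjusted p was 0.148 without DMSO replicate 1 and 0.0651 without DMSO replicate 2. It stayed between 0.0190 and 0.0477 under the other alternatives that tested the gene.

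These Smarcd3 values rest on few reads, nominally 101, 24, 32 and 37 in DMSO replicates 1 and 2 and ACSS2i replicates 1 and 2, from the length of its longest protein-coding transcript. Counting error alone would give the log2 fold change an SD of about 0.24 if no 1 were added to the FPKM. On the log2(FPKM + 1) scale of the fold change and SE above it would be smaller, and was not computed. Smarcd3 lies on the minus strand of chromosome 5 at 24590818 to 24624411, and its end runs into Chpf2, a chondroitin-synthesis gene on the opposite strand. Of the 1944 exonic bases of the protein-coding Smarcd3 transcripts, 642 (33.0%) also belong to Chpf2 exons. Over Smarcd3 transcripts of every kind the shared exonic bases are 2466 (48.2%). Chpf2 measured 8.76 and 6.12 FPKM after DMSO, against 3.11 and 3.49 FPKM after ACSS2i, lower in both inhibitor libraries (log2 fold change -0.96 ± 0.27, SE; limma, unadjusted p = 0.0123, adjusted p = 0.563). Mir671, a microRNA gene on the opposite strand, shares 98 exonic bases with Smarcd3 transcripts of every kind and 0 with the protein-coding ones. It was at 0.01 FPKM in both DMSO libraries and in ACSS2i replicate 1, and at 72.9 FPKM in ACSS2i replicate 2. Whether counting used strand is not given in the sources used here, and without strand the reads of the shared bases cannot be told apart.

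Smarcd1 measured 47.5 and 47.9 FPKM after DMSO, against 40.9 and 43.6 FPKM after ACSS2i, also lower in both inhibitor libraries. Its difference was small, with a log2 fold change of -0.17 ± 0.22 (SE; 95% interval from -0.71 to 0.37). Smarcd1 exceeded Smarcd3 by 9.00-fold and 11.1-fold in DMSO and by 16.5-fold and 19.3-fold in ACSS2i. With 1 FPKM added to each gene, the log2 ratio of Smarcd3 to Smarcd1 was -3.08 ± 0.18 in DMSO and -3.68 ± 0.13 in ACSS2i (SD, n = 2 each), without overlap (exact two-sided permutation p = 0.333). The added 1 makes this ratio and its group difference smaller in size than the folds just given. The third family member, Smarcd2, measured 18.4 and 22.1 FPKM after DMSO, against 15.98 and 20.7 FPKM after ACSS2i.

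The windows at the RefSeq starts of this second pair, chr15:99702037-99702336 on the plus strand for Smarcd1 and chr5:24601953-24602252 on the minus strand for Smarcd3, are shown with matches marked as above. Of the 4 ratios plotted, this is the other one that did not overlap between groups.
Smarcd1 promoter: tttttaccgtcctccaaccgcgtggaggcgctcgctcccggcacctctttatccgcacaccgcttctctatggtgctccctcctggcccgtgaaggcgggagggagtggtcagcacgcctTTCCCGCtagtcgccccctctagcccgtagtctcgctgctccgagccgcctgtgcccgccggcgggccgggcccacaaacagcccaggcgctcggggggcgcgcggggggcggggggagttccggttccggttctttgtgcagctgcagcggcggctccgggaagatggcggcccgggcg
Smarcd3 promoter: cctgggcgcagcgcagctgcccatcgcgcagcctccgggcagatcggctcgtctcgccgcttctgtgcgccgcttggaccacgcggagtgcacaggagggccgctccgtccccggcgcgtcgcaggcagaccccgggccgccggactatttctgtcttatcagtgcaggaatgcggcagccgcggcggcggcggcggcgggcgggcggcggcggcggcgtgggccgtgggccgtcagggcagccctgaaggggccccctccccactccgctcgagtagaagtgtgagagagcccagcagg
The Smarcd1 window held 1 match, to the E2F motif TTCCCGC, 130 bases before the start. Either E2F motif was present in 6.81% of the 32851 windows, and in 1 of the 10 genes. The Smarcd3 window held 0 matches of any motif searched, and it lies inside the longer GENCODE gene. The G and C content was 71.3% for Smarcd1 and 74.7% for Smarcd3, against 63.7% for Actl6a, 61.7% for Actl6b and a median of 52.7% over all windows.

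PHF10 and the DPF proteins fill the PHD finger position, from which the DPF members read acylated histone tails. Phf10 measured 130 and 165 FPKM after DMSO, against 94.2 and 144 FPKM after ACSS2i. It made up 60.9% and 68.1% of the summed level of the 4 PHD finger genes in DMSO and 58.2% and 61.4% in ACSS2i. Its log2 fold change was -0.33 ± 0.31 (SE; 95% interval from -1.08 to 0.43), and the groups overlapped. It came to -0.63 without ACSS2i replicate 2, to -0.15 without DMSO replicate 2 and to -0.025 without ACSS2i replicate 1. The size of this lead depends on the transcript model behind the FPKM. The longest protein-coding transcript of Phf10 in GENCODE M21 has 1663 bases and its longest transcript of any kind 3901 bases. If the values were made with the first, dividing by the second would give 40.2 to 70.3 FPKM, a range that overlaps that of Dpf3. Which model the authors used is not given in the sources used here.

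Dpf3, a neuron-type subunit that is also prominent in muscle, was the most abundant of the DPF genes. It measured 51.0 and 43.0 FPKM after DMSO, against 35.7 and 53.7 FPKM after ACSS2i, so that the inhibitor pair enclosed the DMSO pair (log2 fold change -0.09 ± 0.28, SE). Dpf2, the ubiquitously expressed member, measured 18.7 and 19.8 FPKM after DMSO, against 18.5 and 21.5 FPKM after ACSS2i (log2 fold change 0.05 ± 0.22, SE). Dpf1, a neuron-type member, measured 13.6 and 14.3 FPKM after DMSO, against 13.4 and 15.2 FPKM after ACSS2i (log2 fold change 0.03 ± 0.22, SE). All 3 overlapped between groups.

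Within a library Dpf3 exceeded Dpf2 by 2.72-fold and 2.17-fold in DMSO and by 1.93-fold and 2.50-fold in ACSS2i. The ratio of Dpf1 to Dpf2 was close to constant, at 0.725 and 0.723 in DMSO and at 0.724 and 0.709 in ACSS2i. Dpf3 thus lay above Dpf2 in 4 of 4 libraries, Dpf1 below Dpf2 in 4 of 4, and Phf10 exceeded Dpf3 by 2.54-fold to 3.83-fold. With 1 FPKM added to each sum, the log2 ratio of Dpf1 and Dpf3 together to Dpf2 and Phf10 together was -1.43 ± 0.34 in DMSO and -1.22 ± 0.05 in ACSS2i (SD, n = 2 each), with overlap (exact two-sided permutation p = 0.667).

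SMARCA4 and SMARCA2 are alternative ATPase motors, of which a complex holds one, and Smarca4 is the one known to be required in neural progenitors. Smarca4 measured 36.0 and 44.7 FPKM after DMSO, against 47.6 and 37.4 FPKM after ACSS2i (log2 fold change 0.07 ± 0.26, SE). Smarca2 measured 36.8 and 45.7 FPKM after DMSO, against 38.9 and 58.1 FPKM after ACSS2i (log2 fold change 0.21 ± 0.29, SE; 95% interval from -0.50 to 0.91). Both overlapped between groups. The ratio of Smarca2 to Smarca4 was 1.02 in each DMSO library, and 0.818 and 1.55 in the ACSS2i libraries. The inhibitor libraries thus lay on opposite sides of the DMSO pair (exact two-sided permutation p = 1.0 on the log2 ratio).

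By type, the median log2 fold change was -0.06 for the 4 progenitor-type genes and -0.06 for the 4 neuron-type genes, beside 0.02 over all 11486 genes tested. Without ACSS2i replicate 1 the medians were 0.06 and 0.12, and without ACSS2i replicate 2 they were -0.14 and -0.27, so that both turned sign with 1 library. The mean log2 level of the neuron-type genes minus that of the progenitor-type genes was -1.46 and -1.70 in DMSO and -1.72 and -1.91 in ACSS2i, a difference of -0.23 between groups. With a library left out this difference ran from -0.36, without DMSO replicate 2, to -0.11, without DMSO replicate 1. The inhibitor libraries were both lower, ACSS2i replicate 1 by a margin far smaller than the gap between the DMSO libraries. The genes of a type did not move alike. Of the neuron-type genes Smarcd3, with nominally 24 to 101 reads, was at -0.78. Actl6b, Dpf1 and Dpf3 were at -0.02, 0.03 and -0.09. Of the progenitor-type genes Actl6a was at 0.53, Phf10 at -0.33, Dpf2 at 0.05 and Smarcd1 at -0.17. The difference between types without Smarcd3 was not computed.

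**Figure D4:**
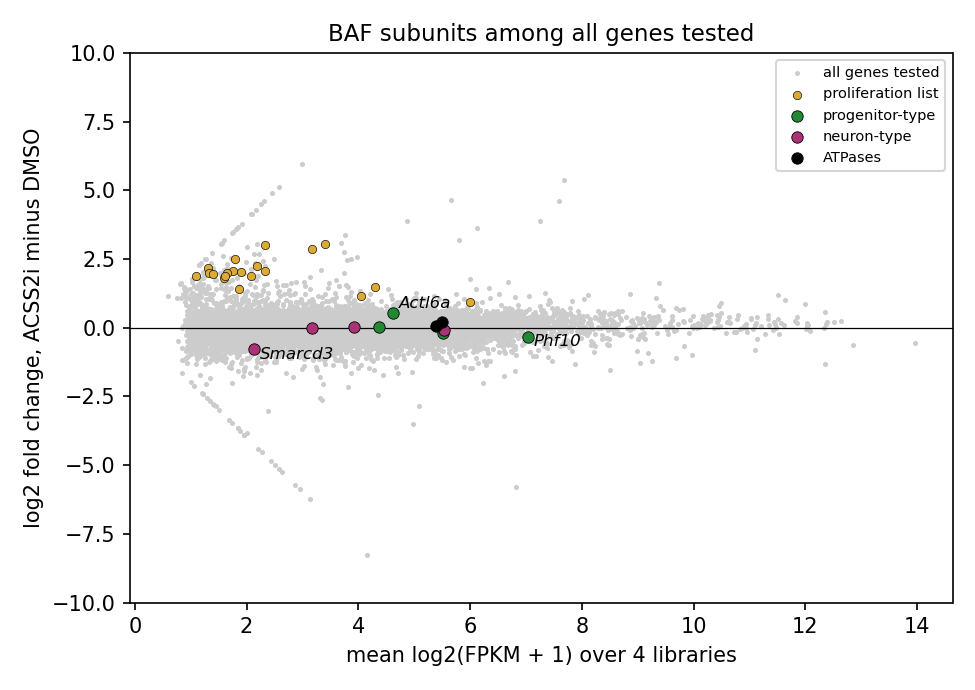
Log2 fold change, ACSS2i minus DMSO, against mean log2(FPKM + 1) over the 4 libraries for the 11486 genes tested (grey), the 20 proliferation genes (yellow) and the 10 BAF genes. The BAF genes lie between -0.78 and 0.53, inside the body of the grey points, and the proliferation genes between 0.94 and 3.05.

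Of 20 other BAF subunits examined, 18 passed the filter and 0 passed limma's test at an adjusted p of 0.05. At an unadjusted p under 0.05 there was 1 of 18, lower, and 0 higher, beside 6.96% of all genes tested in either direction. Of the 18, 3 were higher in both inhibitor libraries, 6 were lower in both and 9 overlapped, with a median log2 fold change of -0.14. Over all genes tested 19.0% were higher in both and 18.3% lower in both. Bcl7c, which encodes a small accessory subunit, measured 13.2 and 16.1 FPKM after DMSO, against 8.52 and 10.0 FPKM after ACSS2i (log2 fold change -0.61 ± 0.24, SE; limma, unadjusted p = 0.0431, adjusted p = 0.703). Arid1a, the large DNA-binding subunit of canonical BAF, measured 69.4 and 66.2 FPKM after DMSO, against 53.1 and 41.1 FPKM after ACSS2i (log2 fold change -0.53 ± 0.25, SE). Smarcc2, a scaffold subunit, measured 54.8 and 46.1 FPKM after DMSO, against 31.7 and 41.3 FPKM after ACSS2i, and Brd9, of the non-canonical complex, at 21.8 and 13.7 FPKM against 27.5 and 22.3 FPKM.

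A further switch is known between Ss18 and its neuronal paralog Ss18l1. Ss18 measured 14.9 and 11.8 FPKM after DMSO, against 14.6 and 17.9 FPKM after ACSS2i, overlapping. Ss18l1 measured 10.4 and 8.49 FPKM after DMSO, against 7.51 and 7.18 FPKM after ACSS2i, lower in both (log2 fold change -0.32 ± 0.23, SE; adjusted p = 0.824 by limma). Ss18 exceeded Ss18l1 by 1.44-fold and 1.39-fold in DMSO and by 1.94-fold and 2.50-fold in ACSS2i. The scaffold Smarcc1 measured 26.9 and 46.6 FPKM after DMSO, against 41.2 and 36.4 FPKM after ACSS2i. Bcl11a and Bcl11b, transcription factors that join BAF in cortical neurons, were near the floor, at no more than 0.305 and 0.0658 FPKM.

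ACTL6A also belongs to the INO80, SRCAP and TIP60 complexes. Of 16 other genes of these complexes, 16 were tested, 5 were higher in both inhibitor libraries, 2 lower in both and 9 overlapped, with a median log2 fold change of 0.10. The shares over all genes tested were 19.0% and 18.3%. None passed limma's test, 0 at an adjusted p of 0.05 and 0 at an unadjusted p under 0.05. Actr8, an actin-related subunit of INO80, measured 12.01 and 9.23 FPKM after DMSO, against 16.3 and 16.1 FPKM after ACSS2i. The ATPases Ruvbl1 and Ruvbl2 had log2 fold changes of 0.51 and 0.49, and Dmap1 of 0.48. Of 17 genes of other remodeler families, 0 passed at an adjusted p of 0.05 and 1 had an unadjusted p under 0.05 by limma, beside 6.96% of all genes tested. This was Hells, a remodeler expressed in dividing cells, with 5.81 and 7.06 FPKM after DMSO, against 21.5 and 19.1 FPKM after ACSS2i (log2 fold change 1.52 ± 0.23, SE; adjusted p = 0.319). The other 16 had a log2 fold change from -0.44, for the CHARGE syndrome gene Chd7, to 0.37. Chd9 was at -0.33 and Baz2a at -0.36. Of the 17, 4 were higher in both inhibitor libraries, 8 were lower in both and 5 overlapped, with a median log2 fold change of -0.17. The shares over all genes tested were 19.0% higher in both and 18.3% lower in both, 37.3% together.

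Among 14 known regulators of the subunit switch, 8 were tested and 6 were microRNA precursors at the floor. Of the 8, 2 were higher in both inhibitor libraries, 1 was lower in both and 5 overlapped. Over all genes tested 19.0% were higher in both and 18.3% lower. By limma 1 of the 8 had an unadjusted p under 0.05, beside 6.96% of all genes tested, and 0 passed an adjusted p of 0.05. Ptbp2, a neuronal splicing repressor, measured 22.1 and 22.8 FPKM after DMSO, against 31.4 and 47.3 FPKM after ACSS2i (log2 fold change 0.75 ± 0.27, SE; limma, unadjusted p = 0.0329, adjusted p = 0.668). Its paralog Ptbp1 measured 59.6 and 67.0 FPKM after DMSO, against 49.8 and 80.0 FPKM after ACSS2i, so that both paralogs were present together. Ctdsp2 and Ctdsp1, phosphatases that act with REST, differed by 0.31 and -0.27 on the log2 scale (limma, unadjusted p = 0.213 and 0.315). Acss2, whose product the compound targets, measured 11.7 and 10.0 FPKM after DMSO, against 12.8 and 26.6 FPKM after ACSS2i. As with Actl6a, its ACSS2i replicate 2 stood well above the other 3 libraries.

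Genes of like pattern were sought among 8636 genes averaging 5 FPKM or more by the root mean square difference of centred log2 values over the 4 libraries. Nearest to Actl6a were Mettl23, Crlf3 and Mum1, at 0.030, 0.033 and 0.034, and 65 genes lay within 0.1. For Actl6b they were Ublcp1, Mterf3 and Stt3b, with 470 genes within 0.1. For Smarca4 they were Ube4b, Usp47 and Wasl, and for Smarca2 they were Shc1, Sfr1 and Nme7, with 365 and 189 genes within 0.1. With 4 libraries, a pattern is thus shared by many genes.

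Other annotated overlaps touch the members less. Mrpl47, on the opposite strand, shares 452 (19.5%) of the exonic bases of the protein-coding Actl6a transcripts and was at 36.0, 34.8, 39.6 and 39.8 FPKM in the order DMSO replicates 1 and 2 and ACSS2i replicates 1 and 2. The opposite-strand gene 1600012H06Rik shares 429 (25.8%) of the 1663 coding-transcript bases of Phf10 and was at 5.56 to 9.08 FPKM, overlapping between groups. The other positions on mm10 are chromosome 17, 14945009 to 14961273, minus strand for Phf10, and chromosome 19, 5896516 to 5913010, minus strand for Dpf2. Smarcd1 lies at chromosome 15, 99702129 to 99713991, plus strand, Dpf1 at chromosome 7, 29303951 to 29318243, plus strand, and Dpf3 at chromosome 12, 83213745 to 83487716, minus strand. Smarca4 lies at chromosome 9, 21616169 to 21704230, and Smarca2 at chromosome 19, 26605050 to 26778322, both on the plus strand. Nominal reads in the shallowest library, DMSO replicate 2, were 38 for Actl6b, 107 for Dpf1 and 124 for Actl6a.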

How the data were processed

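RNA was sequenced from 4 libraries of CAD cells, 2 per group. Per the labels' protocols, these are ScriptSeq v2 libraries of polyadenylated RNA, run on 1 Illumina NextSeq lane. Tools in the submitters' processing notes are STAR 2.3.0, Cufflinks 2.2.1, Cuffdiff and bcl2fastq 02.14.01.07, with the build mm10. Not given in the sources used here are the annotation, the strand setting and the adjustment named in the table's title.

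Each gene has 1 value per library in the deposited table. Its header names no unit, and the values were taken as FPKM made by the authors with Cufflinks, since the processing notes name that tool. The floor is 0.01 FPKM. The 1 gene with a failed value was left out. Relative depth is the most common ratio between low values of the same gene. Nominal reads use the annotated lengths of 274 single-transcript genes in GENCODE M21.

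Tests used log2(FPKM + 1) for genes averaging 1 FPKM or more (limma 3.58.1, R 4.3.3, moderated with a mean-variance trend, two-sided, Benjamini-Hochberg over all genes tested). Markers listed at or near 0 are named as such. Medians by type and ratios are descriptions. The members and gene lists were chosen with earlier results of these data known. Genes named are the 10 members, a fixed set (Acss2, Rest, Ptbp1, Ptbp2, Ss18, Ss18l1, Smarcc1, Bcl11a, Bcl11b and others) and up to 4 genes with the smallest p of a list. Cell type markers were also named outside this rule, among them Th, Slc6a2, Dbh, Slc18a2, Mbp and Cnp. The genes that overlap a member, Mir124a-1hg and the miR-9-3p search were chosen after the values were seen. Bicra and Bicral were matched by the older symbols Gltscr1 and Gltscr1l. Promoter windows matched all 10 members by symbol in a RefSeq table (GRCm38.p6).

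Alternatives were pseudocounts of 0.1 and 5, no filter or a mean of at least 5 FPKM, 3 other scalings, limma without the trend, a replicate block and leaving out each library.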

Additional observations from a re-analysis of the deposited data

How the results depend on the processing

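Over 13 alternatives (12 for Smarcd3, which a mean of at least 5 FPKM removes) 0 of 129 member values passed an adjusted p of 0.05, with a smallest adjusted p of 0.219, for Actl6a without ACSS2i replicate 1. Actl6a, Phf10, Smarcd1 and Smarcd3 had 1 sign under every alternative run, though with a library left out Phf10 ran from -0.63 to -0.025 and Actl6a from 0.13 to 0.93. The log2 fold change of Smarcd3 ran from -0.98 with a pseudocount of 0.1 to -0.41 with one of 5. The other 6 members, at -0.09 (Dpf3) to 0.21 (Smarca2) in the fit reported, had 12 values of opposite sign, and the cause was not tested. With values rescaled to equal library totals these were -0.0093 for Dpf2 and -0.023 for Dpf1. With a library left out, the log2 fold change ran from -0.058 to 0.15 for Dpf2, -0.16 to 0.11 for Actl6b, -0.055 to 0.12 for Dpf1, -0.38 to 0.19 for Dpf3, -0.10 to 0.24 for Smarca4 and -0.074 to 0.49 for Smarca2.

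The count of all genes past an adjusted p of 0.05, 3 in the fit reported, was 6 with a pseudocount of 0.1, 0 with one of 5, 0 without a filter, 6 with values rescaled to equal library totals, 8 with a replicate block and 13 to 26 with a library left out. The count at an unadjusted p under 0.05, 799 in the fit reported, was 1342 without a filter and 362 to 1662 with a library left out. The neuron-type median ran from -0.27 to 0.12 with a library left out, and the group difference of the log2 Smarcd3/Smarcd1 ratio was -0.81 with a pseudocount of 0.1 and -0.25 with one of 5.

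Replicate numbers recur in both groups, but deviations of same-numbered libraries correlated at -0.017 across genes, and the labels name no shared batch. With a replicate block the unadjusted p of Smarcd3 was 0.0344 and 0 of the 10 members passed an adjusted p of 0.05. DMSO replicate 2, at a nominal 3230000 reads, limits the precision for Smarcd3 and Actl6b.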
